A study of Homo sapiens with 6 samples.

Results

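Myosin genes were read in AGS, an established human gastric adenocarcinoma cell line, on 6 Affymetrix Human Gene 1.0 ST arrays. The members were the genes whose symbol on the platform is MYO, MYH or MYL followed by a digit, which gave 51 of 18657 genes and 1535 of the 224320 probe sets that name 1 gene. One group of 3 arrays came from AGS cells transfected with an anti-miR inhibitor of miR-25-3p, and the other 3 from AGS cells transfected with a non-targeting control RNA. In both groups a lipid reagent carried the oligonucleotide, cells were transfected again at 24 h and harvested at 48 h, and 500 ng of total RNA was labelled per sample. Members were picked by name alone, but this set of genes was chosen with earlier results of these data known. Bright and dim members were chosen by their level on these same arrays, so that separation is a description and was not tested.

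Myosins are motors that pull on actin filaments by splitting ATP. A conventional myosin, class II, is built of a pair of heavy chains (MYH genes), each of which carries an essential and a regulatory light chain (MYL genes). Sarcomeric heavy chains drive skeletal and cardiac muscle, MYH11 drives smooth muscle, and the nonmuscle heavy chains MYH9, MYH10 and MYH14 (isoforms IIA, IIB and IIC) work in the cortex, stress fibres and cleavage furrow of other cells. Unconventional myosins (MYO genes) carry cargo, tether membranes or shape microvilli and filopodia, and in an epithelium several of them sit in the brush border.

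The inhibitor is directed against miR-25-3p, whose mature sequence is shown with the other microRNAs in RefSeq (GRCh38.p14) that share its seed, because an inhibitor acts by pairing with the mature strand. Capitals mark the seed, bases 2 to 8 from the 5′ end, which is the same in all 6 names. The miR-25-3p sequence lies on the minus strand at chr7:100093571-100093592.
miR-25-3p: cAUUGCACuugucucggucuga
miR-92a-3p: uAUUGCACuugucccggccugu
miR-92b-3p: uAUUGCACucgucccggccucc
miR-32-5p: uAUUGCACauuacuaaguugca
miR-363-3p: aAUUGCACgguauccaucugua
miR-367-3p: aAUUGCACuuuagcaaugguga

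Some muscle heavy chain genes are themselves hosts of the microRNAs known as myomiRs. In the same annotation, miR-208a lies within MYH6 (chr14:23388602-23388623 for the 3p arm, minus strand), miR-208b within MYH7 (chr14:23417997-23418018, minus strand) and miR-499a within MYH7B (chr20:34990408-34990428 for the 5p arm, plus strand). In all, 14 mature microRNAs lay within 7 member genes, and none of them shared the miR-25-3p seed. Capitals again mark the seed. The miR-208a and miR-208b sequences carry the same seed, and that of miR-499a-5p differs from it.
miR-208a-3p: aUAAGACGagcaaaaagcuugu
miR-208b-3p: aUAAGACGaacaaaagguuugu
miR-499a-5p: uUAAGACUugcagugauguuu
Mature microRNAs were not measured here, so neither their levels nor the inhibition of miR-25-3p can be read, and only the host messages are described.

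A gene's value on an array is the mean log2 value of its probe sets, which are about the size of an exon. Probes differ in brightness, so an order of genes by value is coarse, and levels are set here against 2 yardsticks. The lower one is the 95th percentile of 371 olfactory receptor genes, which are silent in most tissues, at 4.28 on the log2 scale. The upper one is the median of all genes, at 5.77. Of the 51 members, 19 lay above the all-gene median, 12 between the yardsticks and 20 at or below the olfactory receptor level. Over all genes, 71.0% lay above the olfactory receptor level, against 60.8% of members. A value above the lower yardstick is therefore no sign of expression by itself. The members nearest to it were MYO5A (4.49), MYO15A (4.38) and MYO1G (4.32) just above, and MYH13 (4.27), MYH6 (4.26) and MYO18B (4.22) just below.

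The 19 bright members were 2 of the 3 nonmuscle heavy chains, all 5 nonmuscle and smooth muscle light chains, 11 of the 24 unconventional myosins and 1 muscle light chain, MYL5, at 6.05. None of the 11 sarcomeric heavy chains reached the all-gene median. Of those 11, 9 lay at or below the olfactory receptor level, and MYH7 (5.05) and MYH7B (4.80) lay between the yardsticks, as did the smooth muscle heavy chain MYH11 (4.78). Of the 7 muscle light chains, 5 lay at or below the lower yardstick. The atrial light chain MYL7 was at 5.62. The myomiR hosts MYH6, MYH7 and MYH7B were thus all below the median of all genes.

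**Figure D1:**
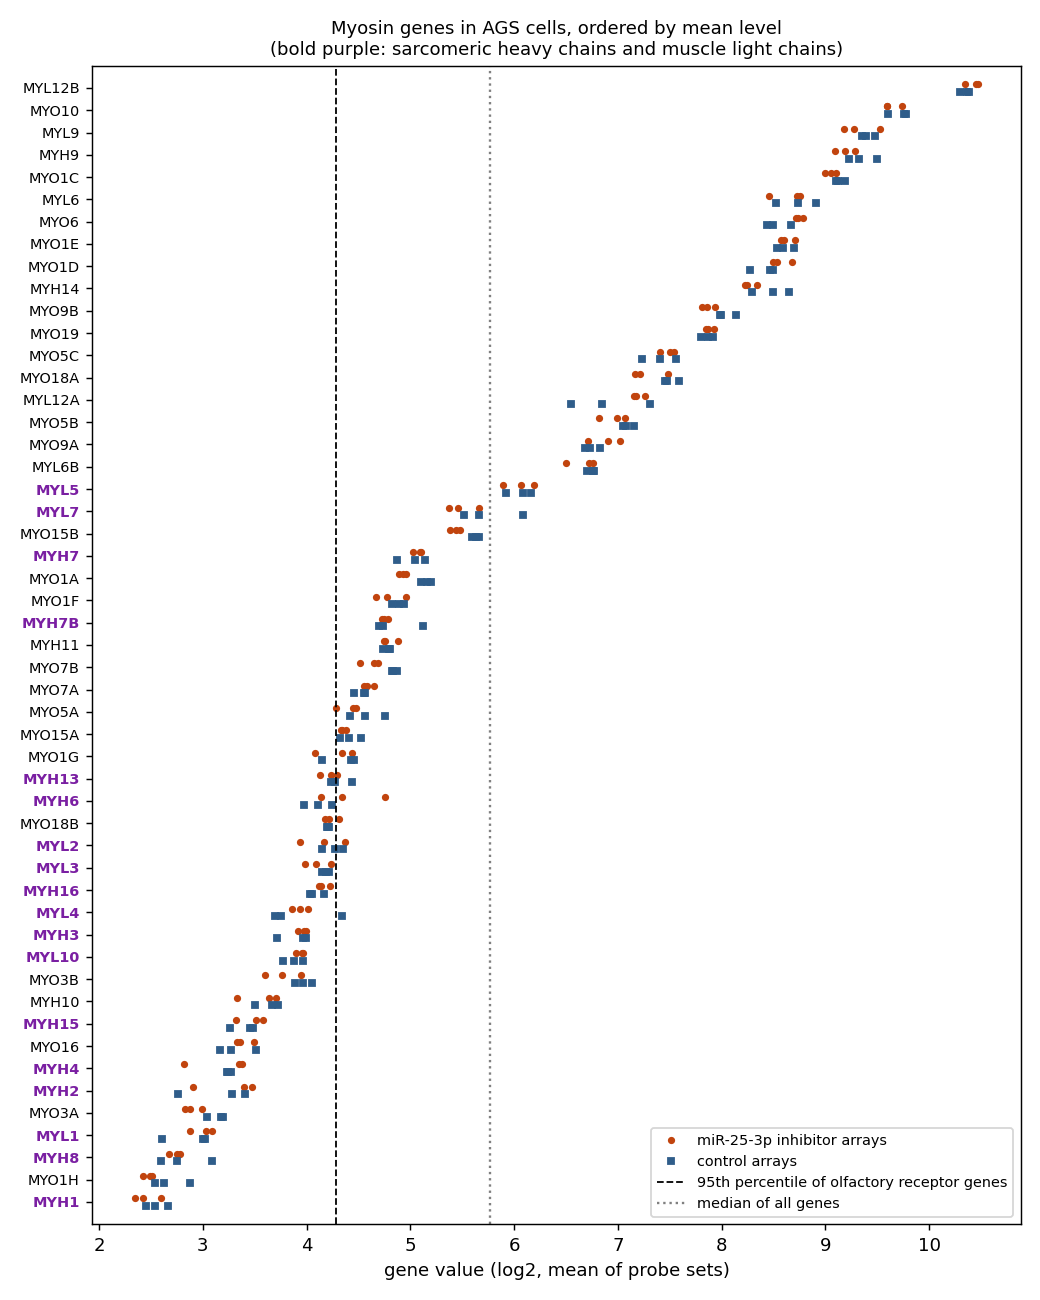
Gene values (log2, x axis) of the 51 myosin genes on 3 inhibitor arrays (circles) and 3 control arrays (squares), ordered by the mean of all 6. The dashed line is the 95th percentile of olfactory receptor genes (4.28), the dotted line the median of all genes (5.77). Of the 18 sarcomeric heavy chains and muscle light chains, in bold purple, 14 have means at or below the dashed line. Only MYL5 of them has its mean above the dotted line. Also at or below the dashed line are 5 unconventional myosins and MYH10.

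Markers of cell type were read beside these levels. All 7 epithelial markers, such as EPCAM (10.5), lay above the all-gene median. Of 18 markers of skeletal and cardiac muscle, 13 lay above the olfactory receptor level and 5 above the all-gene median, among them the muscle actin ACTA1 (7.02), the intermediate filament gene DES (7.46) and the slow troponin TNNT1 (7.73). Of the myogenic regulators, MYOG (5.37) lay between the yardsticks, MYOD1 (4.33) just above the lower one and MYF5 (3.70) below it, as did the sarcomere giants TTN (3.71) and NEB (3.43). Over the 18 markers, the mean per array was 5.11 to 5.26 in inhibitor arrays and 5.12 to 5.20 in control arrays. Of 8 smooth muscle markers, 3 lay above the all-gene median, and their mean per array was 5.02 to 5.12 in inhibitor arrays and 5.03 to 5.16 in control arrays. Fibroblast and leukocyte markers each had 1 above it, of 6 and of 7. The fibroblast mean per array was 4.19 to 4.31 in inhibitor arrays and 4.14 to 4.35 in control arrays. The leukocyte mean was 4.35 to 4.40 in inhibitor arrays and 4.28 to 4.36 in control arrays. The epithelial mean was 9.85 to 9.95 in inhibitor arrays and 9.89 to 9.90 in control arrays. The leukocyte marker CD14 had a difference of 0.46 (SE 0.16), inhibitor minus control on the log2 scale. Its groups did not overlap, and its unadjusted p in limma was 0.017. No other marker was under 0.05, where 2.95% of all genes were higher. The level of CD14, 4.48, lay near the lower yardstick and below the 99th percentile of olfactory receptor genes, 4.92. The groups did not overlap either for EPCAM (0.21), ELF3 (-0.14), DES (-0.11) and ACTA2 (-0.15). The inhibitor arrays lay wholly above the controls for 5.19% of all genes and wholly below for 7.68%. The part of these markers in the myosin differences was not tested.

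Nonmuscle myosin II in these arrays was read from MYH9 and MYH14 and not from MYH10. MYH9 was at 9.28, 9.19 and 9.09 in inhibitor arrays, against 9.50, 9.23 and 9.32 in control arrays. MYH14 was at 8.34, 8.22 and 8.24 in inhibitor arrays, against 8.65, 8.29 and 8.50 in control arrays. In both genes the groups overlapped, because an inhibitor array exceeded the lowest control array. MYH10, the isoform of neurons and many embryonic tissues, was at 3.33, 3.64 and 3.71 in inhibitor arrays, against 3.500, 3.73 and 3.67 in control arrays. The probe sets give the same picture: 45 of 47 for MYH9 and 46 of 47 for MYH14 lay above 4.68, the 95th percentile of olfactory receptor probe sets, against 9 of 42 for MYH10. A single MYH10 probe set was nonetheless bright, at 8.98 over the 6 arrays, with the next at 6.26 and 6.12. Sarcomeric heavy chains held bright probe sets too, the highest at 10.22 for MYH7, 9.75 for MYH7B, 9.72 for MYH13 and 9.71 for MYH6. Above 4.68 lay 17 of 32 probe sets of MYH7, 25 of 43 of MYH7B, 14 of 37 of MYH13 and 11 of 30 of MYH6. For MYH1 it was 3 of 26.

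The differences of the nonmuscle heavy chains were -0.16 (SE 0.10) for MYH9, -0.21 (SE 0.11) for MYH14 and -0.074 (SE 0.12) for MYH10, inhibitor minus control on the log2 scale. Limma put none past the threshold, with unadjusted p of 0.16, 0.087 and 0.56. Control replicate 1 was the highest array for both MYH9 and MYH14. Without it the differences were -0.088 for MYH9 and -0.13 for MYH14. Over all arrays left out in turn they reached -0.22 and -0.31, both without control replicate 2. With the median of probe sets the MYH9 difference was -0.30, at an unadjusted p of 0.024 in limma, and on its brightest probe set it was 0.037. With a variance trend the unadjusted p of MYH14 was 0.046 in limma. The MYH10 difference was 0.092 without the dimmest 30% of probe sets. Of the MYH14 probe sets, 39 of 47 were lower in the inhibitor arrays and 8 higher, and of those of MYH9, 33 were lower and 13 higher.

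The light chains that partner these heavy chains were among the brightest members. MYL12B, a regulatory light chain of nonmuscle cells, had the highest value of all members, at 10.35, 10.47 and 10.45 in inhibitor arrays, against 10.30, 10.38 and 10.37 in control arrays. MYL9, the regulatory light chain shared with smooth muscle, was at 9.28, 9.53 and 9.18 in inhibitor arrays, against 9.47, 9.35 and 9.39 in control arrays. The essential light chain MYL6 was at 8.46, 8.76 and 8.73 in inhibitor arrays, against 8.91, 8.53 and 8.74 in control arrays. The groups overlapped in all 3. MYL6B, a second essential light chain, was at 6.50, 6.72 and 6.76 in inhibitor arrays, against 6.70, 6.76 and 6.76 in control arrays, with overlap as well. Their differences were 0.076 (SE 0.086) for MYL12B, -0.078 (SE 0.11) for MYL9, -0.080 (SE 0.13) for MYL6 and -0.082 (SE 0.098) for MYL6B.

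MYL12A shows how a difference in a gene value can rest on 1 dim probe set. It was at 7.16, 7.26 and 7.18 in inhibitor arrays, against 6.55, 7.31 and 6.85 in control arrays, a difference of 0.30 (SE 0.17). The spread sat in the controls, with an SD of 0.38 (n = 3) against 0.057 (n = 3) in inhibitor arrays. Of its 5 probe sets, 1 read 4.57, 4.63 and 3.52 in inhibitor arrays, against 1.35, 4.19 and 2.67 in control arrays, a difference of 1.5. Its brightest probe set read 11.27, 11.26 and 11.26 in inhibitor arrays, against 11.53, 11.45 and 11.33 in control arrays, a difference of -0.17. The MYL12A difference was -0.0067 once the dimmest 30% of probe sets were dropped, 0.12 without control replicate 1 and 0.50 without control replicate 2. MYL6 was alike in kind: 1 of its 8 probe sets, at 4.08 over the arrays, differed by -0.86, and the gene's difference was 0.032 once the dimmest 30% were dropped.

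MYL12A and MYL12B are neighbouring genes on chromosome 18 with closely similar coding sequences, and RefSeq lists 1 pseudogene of MYL12A, 2 of MYL12B and 5 of MYL6. Their probe sets may therefore read more than 1 locus, and the values of these light chains are uncertain to that extent. The same caution holds for the run of 6 neighbouring muscle heavy chains on chromosome 17 (MYH13, MYH8, MYH4, MYH1, MYH2 and MYH3) and for the pair MYH6 and MYH7 on chromosome 14.

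**Figure D2:**
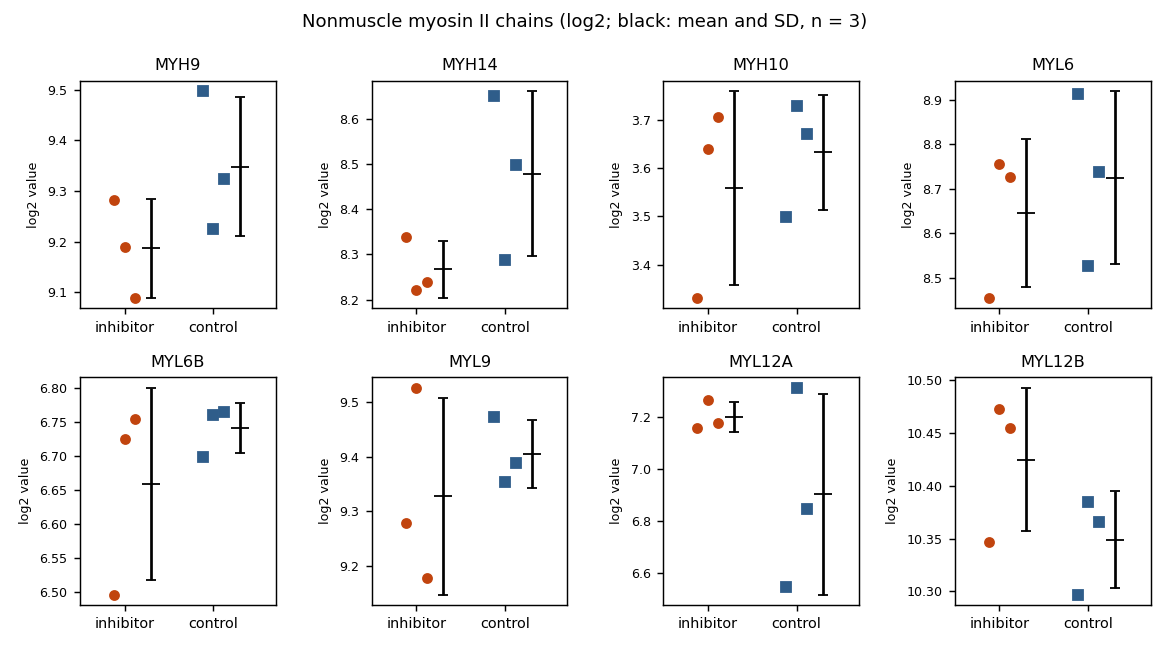
Log2 gene values of the chains of nonmuscle myosin II in 3 inhibitor and 3 control arrays, each panel with its own axis, and black bars for the mean and SD (n = 3). The groups overlap in every panel, and the MYL12A controls are spread from 6.55 to 7.31.

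Among unconventional myosins, the bright ones were spread over many classes. MYO10, a filopodial motor, led with 9.74, 9.59 and 9.59 in inhibitor arrays, against 9.78, 9.61 and 9.76 in control arrays. MYO1C, a class I motor that links membranes to actin, was at 8.998, 9.10 and 9.05 in inhibitor arrays, against 9.19, 9.10 and 9.12 in control arrays. MYO1E, another class I motor, was at 8.60, 8.57 and 8.70 in inhibitor arrays, against 8.54, 8.59 and 8.69 in control arrays. The groups overlapped in all 3, and the differences were -0.073 (SE 0.094) for MYO10, -0.085 (SE 0.084) for MYO1C and 0.017 (SE 0.090) for MYO1E. MYO19, the mitochondrial motor, was at 7.93, 7.87 and 7.85 in inhibitor arrays, against 7.92, 7.80 and 7.86 in control arrays, a difference of 0.024 (SE 0.085). The class V cargo motors differed in level: MYO5C (7.44) and MYO5B (7.03), which act in epithelial recycling, lay above the all-gene median, and MYO5A, the melanosome motor, lay below it, at 4.45, 4.28 and 4.48 in inhibitor arrays and 4.41, 4.56 and 4.75 in control arrays.

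Of the 24 unconventional myosins, 13 did not reach the all-gene median. MYO3A, MYO3B, MYO7A and MYO15A, whose products serve the sensory hair cells of the inner ear, were at 3.02, 3.87, 4.56 and 4.38, while MYO6, which also serves hair cells, was bright, at 8.64. MYO1F and MYO1G, class I myosins of blood cells, were at 4.84 and 4.32. MYO18B, of striated muscle, was at 4.22 and MYO16, which is best known in neurons, at 3.36. MYO1A and MYO7B, motors of the intestinal brush border, were at 5.04 and 4.73, between the yardsticks.

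Promoter sequence, which the rule did not use, was set beside the level. RefSeq windows of 300 bases (250 before the start to 50 after it, GRCh38.p14) were found for 40 of the 51 members. The other 11 were MYL9, MYH7, MYH7B, MYH11, MYO7A, MYO18B, MYL2, MYH16, MYL4, MYH3 and MYL10. Where a gene had several windows, a motif in any of them counted and the highest CpG count was taken. The median count of CpG dinucleotides was 33 in the 18 bright members with a window, 9 in the 8 between the yardsticks and 4 in the 14 at or below the olfactory receptor level, against 16 over the 27305 genes of the promoter table. The lowest count among bright members was 16, in MYO1E. The motif TATAAA, searched on both strands, was in 0 of 18 bright members, 2 of 8 between the yardsticks and 8 of 14 dim ones, against 14.0% of all genes. The motif GGGCGG, also on both strands, was in 17 of 18, 4 of 8 and 3 of 14 of these, against 48.3% of all genes. The motif CCAAT, on both strands, was in 10 of 18, 0 of 8 and 8 of 14, against 39.7%, and the CArG box, the element of serum response factor, in 1 of 18, 2 of 8 and 0 of 14, against 1.6%. These are letters in a window, not sites, and no relation was tested.

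By class, TATAAA was in 8 of the 11 sarcomeric heavy and muscle light chains with a window and in 2 of the 29 other members, MYO1A and MYO7B. The exceptions to the parallel between CpG count and level were genes below the all-gene median with many CpG. They were MYO5A (41), between the yardsticks, and the dim genes MYL3 (39), the slow and ventricular light chain, MYO3A (31) and MYH10 (21). The windows of 3 heavy chains are shown because they span this range: MYH9, bright with 25 CpG, MYH10, dim with 21, and MYH2, a fast skeletal muscle gene, dim with 4 and with TATAAA. Capitals mark CG dinucleotides and, in MYH2, the TATAAA motif. All 3 lie on the minus strand, at chr22:36387918-36388217, chr17:8630676-8630975 and chr17:10549609-10549908, and are written 5′ to 3′ along the gene.
MYH9: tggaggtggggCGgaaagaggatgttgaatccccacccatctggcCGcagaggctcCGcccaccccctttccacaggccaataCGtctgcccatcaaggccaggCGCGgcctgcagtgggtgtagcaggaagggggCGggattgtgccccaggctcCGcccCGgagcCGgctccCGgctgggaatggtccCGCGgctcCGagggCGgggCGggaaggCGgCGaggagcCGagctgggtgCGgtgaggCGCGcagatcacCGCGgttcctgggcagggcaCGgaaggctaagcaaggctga
MYH10: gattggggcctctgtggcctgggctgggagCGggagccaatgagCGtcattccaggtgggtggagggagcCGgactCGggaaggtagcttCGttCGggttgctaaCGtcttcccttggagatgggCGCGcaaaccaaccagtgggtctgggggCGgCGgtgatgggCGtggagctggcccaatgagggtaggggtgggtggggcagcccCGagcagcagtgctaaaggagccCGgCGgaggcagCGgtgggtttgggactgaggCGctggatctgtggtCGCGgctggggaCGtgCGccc
MYH2: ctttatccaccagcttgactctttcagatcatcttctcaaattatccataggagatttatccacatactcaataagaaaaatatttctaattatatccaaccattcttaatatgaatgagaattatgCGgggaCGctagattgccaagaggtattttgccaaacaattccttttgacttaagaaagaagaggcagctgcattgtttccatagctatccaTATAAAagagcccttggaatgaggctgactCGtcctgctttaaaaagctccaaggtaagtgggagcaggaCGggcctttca

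**Figure D3:**
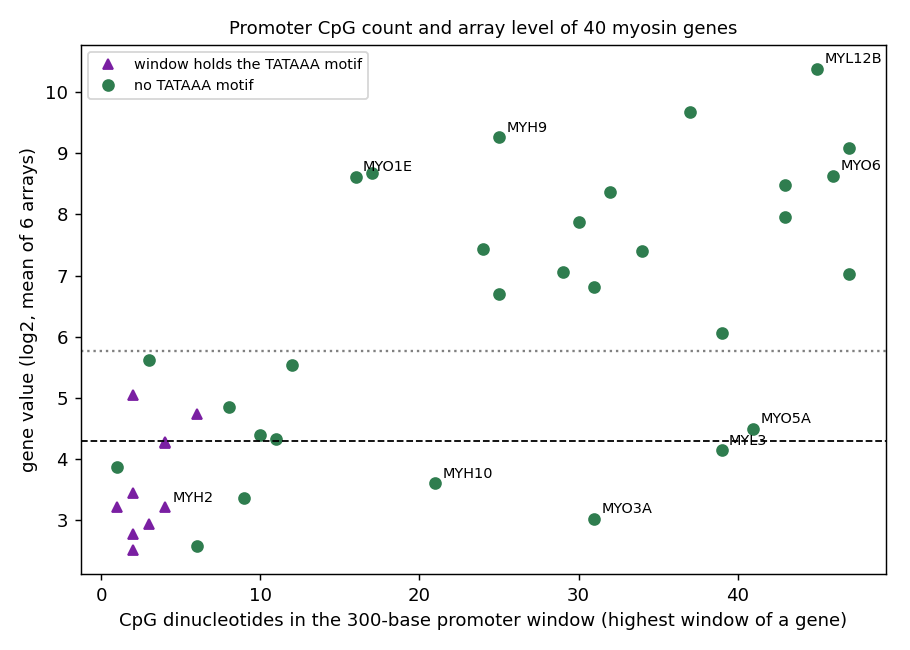
CpG dinucleotides in the promoter window (x axis) and mean log2 value over 6 arrays (y axis) for the 40 members with a window, with the 2 yardsticks of level as horizontal lines. Triangles hold the TATAAA motif, and all of them lie below the dotted all-gene median. MYO5A (41 CpG), MYL3 (39), MYO3A (31) and MYH10 (21) are CpG-rich and lie below that line too.

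The comparison of inhibitor with control asked which messages differ when the cells receive this inhibitor. For the myosins the answer was small differences and no call: limma, with Benjamini-Hochberg adjustment over all genes, put 0 of 51 members past an adjusted p of 0.05, where 0% of all genes passed, and the members' adjusted p ran from 0.788 to 0.998. Every member's difference lay between 0.835-fold and 1.23-fold. The arrays read whole cultures, in which fewer cells with a message and less of it per cell cannot be told apart. At an unadjusted p under 0.05, 1 member was higher (2.95% of all genes) and 4 were lower (3.16% of all genes), 5 in all. The 3 inhibitor arrays lay wholly above the controls for 2 members (5.19% of all genes) and wholly below for 6 (7.68% of all genes). Negative differences were found in 30 members and positive ones in 21, against 49.3% negative and 50.7% positive over all genes. The median difference was -0.073 over the members and 0.0021 over all genes, and it turned to 0.053 when each gene was read from its brightest probe set. With 51 genes these shares rest on few members, and the list itself was not tested.

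By level, the 19 bright members had 11 negative and 8 positive differences with a median of -0.073, the 12 between the yardsticks 9 and 3 with a median of -0.090, and the 20 dim ones 10 and 10 with a median of -0.033. Over all genes, 50.2% were negative above the olfactory receptor level and 47.3% at or below it. Whether the levels differ in this was not tested. The 18 sarcomeric heavy and muscle light chains had 9 negative and 9 positive differences. Their mean per array was 4.01, 4.04 and 4.002 in inhibitor arrays, against 4.14, 3.91 and 4.01 in control arrays, so the controls spanned the inhibitor arrays.

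**Figure D4:**
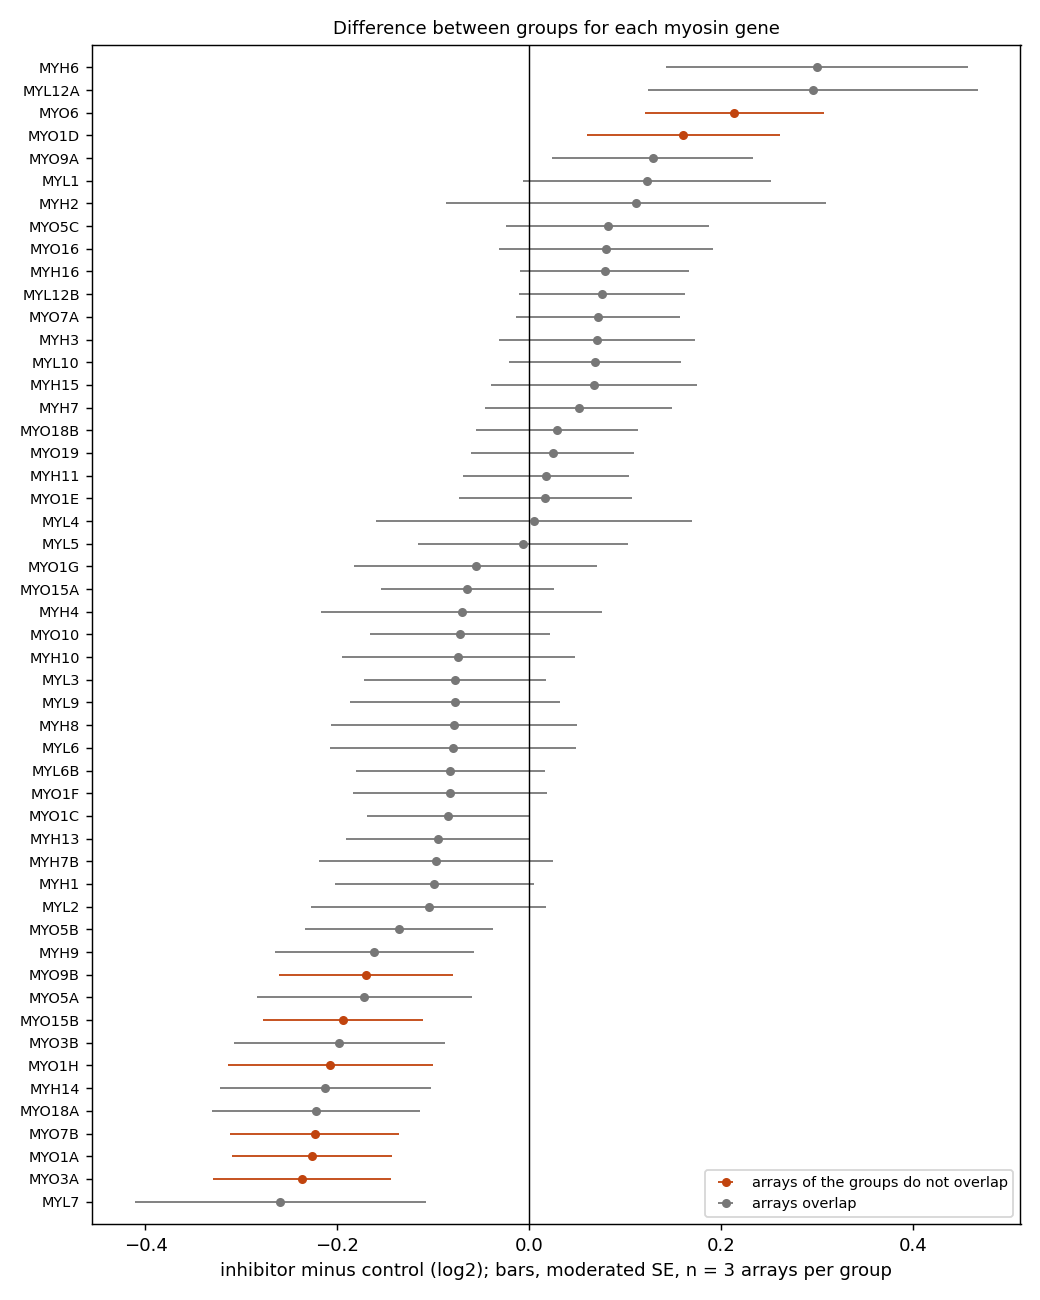
Inhibitor minus control (log2, x axis) with the moderated SE for the 51 members, ordered by the difference (n = 3 arrays per group). Orange marks the 8 members whose groups of arrays do not overlap, 2 of them positive, and grey the rest.

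The member with a positive difference at an unadjusted p under 0.05 was MYO6, the motor that moves toward the minus end of actin and serves endocytosis. It was at 8.79, 8.71 and 8.74 in inhibitor arrays, against 8.43, 8.50 and 8.66 in control arrays. All inhibitor arrays lay above all controls, by 0.21 (SE 0.094) in the mean, with 28 of 34 probe sets positive and 6 negative. Its unadjusted p in limma was 0.0498, ran from 0.023 to 0.13 when 1 array was left out, and was 0.068 with the replicate block. MYO1D, a class I motor, also had no overlap, at 8.68, 8.49 and 8.53 in inhibitor arrays, against 8.27, 8.46 and 8.49 in control arrays. The lowest inhibitor array barely exceeded the highest control. The difference of 0.16 (SE 0.10) was 0.092 without control replicate 1, and -0.045 when the median replaced the mean over probe sets.

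The 4 members with negative differences at an unadjusted p under 0.05 were MYO1A, MYO7B, MYO15B and MYO3A, all below the all-gene median. MYO1A was at 4.93, 4.89 and 4.96 in inhibitor arrays, against 5.10, 5.16 and 5.20 in control arrays, a difference of -0.23 (SE 0.083). MYO7B was at 4.65, 4.69 and 4.51 in inhibitor arrays, against 4.83, 4.87 and 4.82 in control arrays, a difference of -0.22 (SE 0.088). The groups did not overlap in either of these genes, and 21 of 30 probe sets of MYO1A and 24 of 44 of MYO7B were negative. MYO15B, a relative of the hearing gene MYO15A, was at 5.48, 5.44 and 5.38 in inhibitor arrays, against 5.64, 5.66 and 5.59 in control arrays, a difference of -0.19 (SE 0.083). MYO3A was at 3.00, 2.88 and 2.83 in inhibitor arrays, against 3.197, 3.18 and 3.04 in control arrays, a difference of -0.24 (SE 0.093). The groups were apart in these as well, but on their brightest probe sets both differences were positive, at 0.30 for MYO15B and 0.31 for MYO3A. Their unadjusted p values in limma were 0.024 for MYO1A, 0.033 for MYO7B, 0.046 for MYO15B and 0.032 for MYO3A. With the dimmest 30% of probe sets dropped, 0 members were lower at an unadjusted p under 0.05, and the differences were -0.085 for MYO1A, -0.086 for MYO7B, -0.15 for MYO15B and -0.14 for MYO3A. With the median of probe sets that of MYO7B was -0.090. With the replicate block the unadjusted p of MYO15B in limma was 0.063.

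MYO9B and MYO1H also had inhibitor arrays wholly below the controls. MYO9B was at 7.94, 7.86 and 7.81 in inhibitor arrays, against 8.14, 7.99 and 7.99 in control arrays, a difference of -0.17 (SE 0.090) with 28 of 40 probe sets negative, which was -0.0067 on its brightest probe set. MYO1H was at 2.51, 2.42 and 2.49 in inhibitor arrays, against 2.88, 2.54 and 2.63 in control arrays, a difference of -0.21 (SE 0.11). MYO1H lay below the olfactory receptor median of 2.69, and none of its 7 probe sets was above 4.68. The most negative and most positive members did not separate the groups. MYL7 was at 5.37, 5.66 and 5.46 in inhibitor arrays, against 6.08, 5.66 and 5.52 in control arrays, a difference of -0.26 (SE 0.15) that ran from -0.38 to -0.095 as 1 array was left out, the smallest without control replicate 1. MYH6 was at 4.13, 4.34 and 4.76 in inhibitor arrays, against 4.11, 3.98 and 4.24 in control arrays, a difference of 0.30 (SE 0.16) that ran from 0.13 to 0.44 as 1 array was left out, the smallest without inhibitor replicate 3. It was 0.035 once the dimmest 30% of probe sets were dropped, and its unadjusted p in limma was 0.043 with the replicate block.

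**Figure D5:**
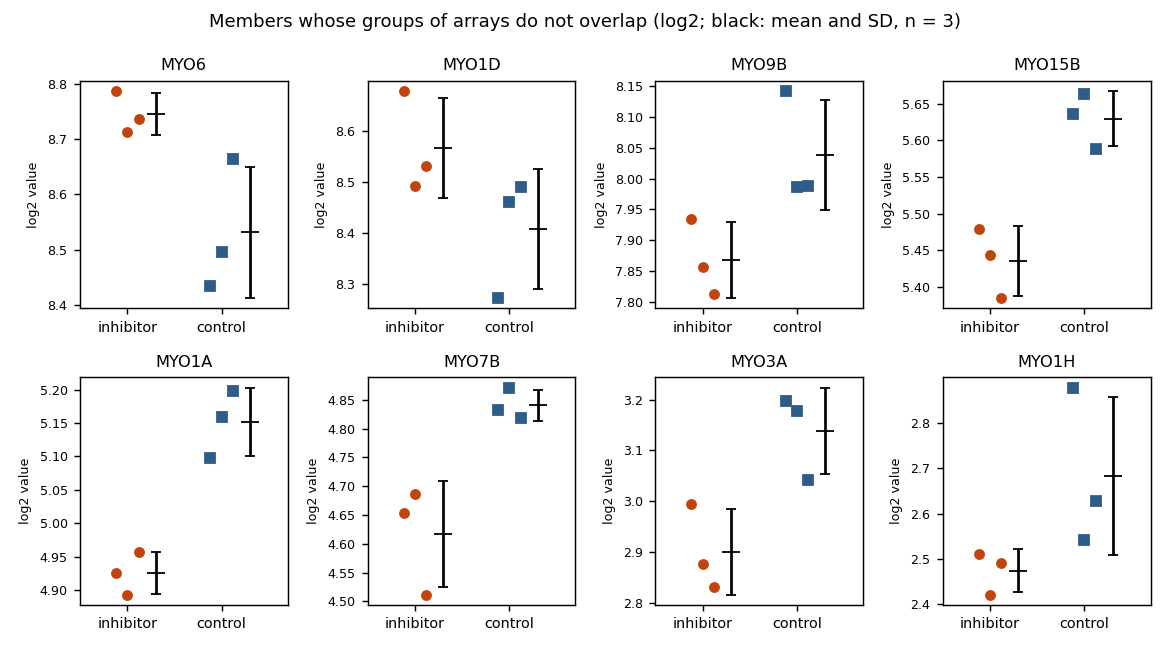
Log2 gene values of the 8 members whose groups of arrays do not overlap, in 3 inhibitor and 3 control arrays, each panel with its own axis, and black bars for the mean and SD (n = 3). MYO6 and MYO1D are higher in the inhibitor arrays and the other 6 lower, by at most 0.24 in the mean.

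The genes that act on myosins were read from lists of kinases, phosphatases, actins, cargo partners and transcription factors, and from 1 further list of myosin regulators. Limma called 0 genes of these lists at an adjusted p of 0.05, and of their 76 genes 0 were higher and 3 lower at an unadjusted p under 0.05 (2.95% and 3.16% of all genes), namely CDC42BPG, RAB11B and CCN1. Of 17 myosin kinases and phosphatases, 10 had negative and 7 positive differences with a median of -0.016. PPP1CC, a catalytic subunit of protein phosphatase 1, had 0.13 (SE 0.093). The other catalytic subunits, PPP1CA and PPP1CB, had -0.013 (SE 0.097) and 0.00089 (SE 0.099). The smooth muscle phosphatase inhibitor PPP1R14A, with a level of 4.51, had 0.22 (SE 0.13). The kinases DAPK3 and DAPK2 had -0.14 (SE 0.085) and -0.13 (SE 0.098). Outside that list, CDC42BPG, a kinase that phosphorylates myosin light chains, was lower at an unadjusted p of 0.029 in limma, with -0.29 (SE 0.11), and LLGL2, a polarity protein that binds myosin II, had -0.18 (SE 0.087). The furrow protein ANLN had 0.12 (SE 0.10).

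Actins, tropomyosins and actinins had 7 positive and 7 negative differences among 14, with a median of 0.0042. ACTA1 had 0.17 (SE 0.10) and ACTN2, an actinin of muscle, 0.10 (SE 0.10). ACTN2 lay below the olfactory receptor level, at 4.15, and ACTN3, also an actinin of muscle, had -0.034 (SE 0.13). The smooth muscle actins ACTA2 and ACTG2 had -0.15 (SE 0.097) and -0.15 (SE 0.11). Of 18 measured cargo partners, 10 were negative with a median of -0.028. RAB11B, a partner of class V myosins on recycling endosomes, was at an unadjusted p of 0.0074 in limma. It had 8.61 in inhibitor arrays and 8.91 in control arrays, a difference of -0.30 (SE 0.087). RAB11A and RAB11FIP2 of the same list went the other way, with 0.050 (SE 0.084) and 0.055 (SE 0.10). DYNLL2, a light chain that also binds MYO5A, had -0.18 (SE 0.11), while the MYO6 adaptors TAX1BP1 and DAB2 had 0.15 (SE 0.093) and 0.11 (SE 0.10). The other MYO6 adaptors of the list had differences of both signs, with -0.17 (SE 0.11) for OPTN, -0.024 for CALCOCO2, 0.046 for GIPC1 and 0.026 for TOM1. Among 11 genes of SRF and MRTF, the factors that drive many actin and myosin genes, and their reported targets, 8 were negative with a median of -0.10. MRTFA had -0.17 (SE 0.083) and CCN1, a reported target, -0.34 (SE 0.11) at an unadjusted p of 0.012 in limma. CNN1 had 0.11 (SE 0.16) and VCL 0.067 (SE 0.10). Over all genes, the median difference was 0.0021.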

How the data were processed

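The deposited table holds log2 expression values of 257430 probe sets on 6 arrays. Per the submitters' processing notes the authors worked with the Transcriptome Analysis Console and Expression Console of Affymetrix and with RMA; versions and settings are not given in the sources used here. RMA evens out the distributions of arrays and hides shifts common to most genes. Precision is limited by having 3 arrays per group. Labels call the arrays biological replicates. Array medians were 6.02 to 6.07, and arrays correlated over genes at 0.991 to 0.995 inside a group, against 0.990 to 0.994 across groups.

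Probe sets naming 1 gene were averaged per gene. Older symbols were updated through RefSeq (2531 symbols), except the members' own symbols and 2 synonyms of myosin genes, which stayed apart. Inhibitor was compared with control in limma 3.58.1 (R 4.3.3), with no replicate block and Benjamini-Hochberg adjustment over 18657 genes. The fit was tested on simulated data. The members and lists were chosen with earlier results of these data known. Named members were those at an unadjusted p under 0.05 or without overlap, the 12 brightest, the 3 on either side of the lower yardstick, the 3 largest differences each way and the nonmuscle myosin II chains; other lists named up to 2 genes each way by p. Markers, other MYO6 adaptors and members given by level alone were named after their values were seen. So were ACTN3, PPP1CA, PPP1CB, RAB11A and RAB11FIP2. Alternatives covered normalization, probe set summaries, filters, variance estimates, the block and leaving out arrays. The counts of 1 gene list are not reported here.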

Additional observations from a re-analysis of the deposited data

How the results depend on the processing

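With the replicate block, limma called 0 genes, so no adjusted call depended on it. At an unadjusted p under 0.05 limma then put 1 member higher and 3 lower, against 605 and 556 over all genes. The members differed, however: MYO6 and MYO15B were no longer under that p, and MYH6 came under it as the higher member. Pairing was checked through the correlation, over genes, of what 2 arrays with the same number add to their group mean, which was -0.032, -0.040 and 0.17, and no pairing was assumed. Every other alternative also called 0 genes except leaving out arrays, which gave 0 to 1 higher, the 1 without control replicate 3. Higher genes at an unadjusted p under 0.05 numbered 291 without the dimmest 50% of genes, against 551 of 18657 in the main fit. That filter tests fewer genes, so these counts are not shares of the same total. Members higher at an unadjusted p under 0.05 numbered 2 with the median of probe sets, 3 with the brightest and 0 with robust variance. Leaving out an array they numbered 0 to 1 (0 without inhibitor replicate 2 or 3 or control replicate 1). Over all genes those counts, in that order, were 522, 538, 545 and 427 to 713, against 551 in the main fit. Lower ones numbered 1 with the brightest probe set, 0 without the dimmest 30% of probe sets and 2 with a variance trend. They numbered 1 to 2 leaving out any array, and 1 without the dimmest 50% of genes. Over all genes the lower counts, in that order, were 625, 593, 674, 429 to 633 and 524, against 590 in the main fit. The 50% filter removes all 4 lower members of the main fit, because they lay below the all-gene median. Members without overlap and higher numbered 4 with the median of probe sets and 3 to 7 leaving out an array. Those lower numbered 2 with the brightest probe set, 1 without the dimmest 50% of genes and 8 to 11 leaving out an array. Fewer arrays overlap less often by construction. Of the 6 lower members without overlap in the main fit, only MYO9B lay above the all-gene median and passed the 50% filter. Shares of all genes without overlap were not counted under these settings. The median difference of the members was 0.053 with the brightest probe set, -0.013 without the dimmest 30% of probe sets and -0.083 to -0.013 leaving out an array, at -0.013 without inhibitor replicate 1 and -0.019 without control replicate 1. Members above the separating level numbered 19 when the all-gene median, a higher bar, was that level. They numbered 49 when each gene was read from its brightest probe set, out of a median of 33 per member. That count is no sign of expression by itself. Why counts moved was otherwise not tested.

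Of 442 differences of named genes under the settings that keep all arrays, 414 kept their sign. With the brightest probe set the sign turned for MYO15B (0.30), MYO3A (0.31), MYL12B (-0.070), MYO10 (0.22), MYH9 (0.037), MYL6 (0.040), MYO5A (0.31), MYO15A (0.31), MYO1G (0.31), MYH13 (0.10), MYL12A (-0.17), DAPK3 (0.0067), DAPK2 (0.0067), LLGL2 (0.093), ACTA1 (-0.0067), ACTG2 (0.23), DYNLL2 (0.057) and VCL (-0.26). With the median of probe sets it turned for MYO1D (-0.045), MYO1C (0.045), MYL6 (0.11), MYO18B (-0.12) and ROCK1 (-0.023). Without the dimmest 30% of probe sets it turned for MYL6 (0.032), MYO18B (-0.11), MYL12A (-0.0067), MYH10 (0.092) and VCL (-0.013). Leaving out an array, ranges crossed 0 for MYL6 (-0.18 to 0.016), MYO1E (-0.023 to 0.061), MYO19 (-0.0075 to 0.053), MYO1G (-0.15 to 0.046), MYO18B (-0.0087 to 0.059), MYH10 (-0.15 to 0.040), CNN1 (-0.046 to 0.22) and VCL (-0.027 to 0.13).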
